A study of Homo sapiens with 12 samples.

Results

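The antioxidant genes described here are 9 target genes of the transcription factor NRF2: MAFG, GCLC, GCLM, AKR1C1, AKR1C2, AKR1C3, AKR1B10, HMOX1 and FTH1. They were taken by name, from a list chosen with earlier results of these data known. All probes annotated to them in the value table were used. That gave 11 of the 16381 probes in the value table, for 7 of the 9 genes and of the 7331 genes named there. No probe in the value table was annotated to AKR1C1 or FTH1, which were not analysed here.

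NRF2 is a transcription factor that is held at low levels by KEAP1, an adaptor that directs it to degradation. Oxidants and electrophiles release it, and it then pairs with a small MAF protein at antioxidant response elements of genes for glutathione synthesis, carbonyl reduction, haem breakdown and iron storage. In tumours, colorectal cancers among them, this programme is known for buffering reactive oxygen species and removing drugs.

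HT29, a human colorectal cancer cell line, was grown in DMEM with serum and reverse transfected with Lipofectamine RNAiMAX. Each group received 1 siRNA at 5 nM. These were siLUC, a non-targeting control against luciferase, siLRH-1 #1 or siLRH-1 #2, which both target LRH-1, the orphan nuclear receptor encoded by NR5A2. Total RNA was taken at 24 h and hybridised to Illumina HumanHT-12 v4 arrays, with 4 arrays per group, which the study describes as independent biological replicates. The comparisons asked how the NRF2 genes differed after transfection with an siRNA against LRH-1, and whether the 2 siRNAs gave the same change. All groups were transiently transfected cultures of a single line, with no untransfected group, and in bulk RNA fewer cells with a transcript and less transcript per cell cannot be told apart.

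The deposited values were normalised log2 signals, with array medians of 6.56 to 6.57. No probe of the value table used here was named NR5A2, which was not analysed here, so the depth of the knockdown was not checked. Of 11 colon epithelial markers, 9 were measured, at log2 signals of 6.75 to 13.54. CEACAM5 was the 1 of these that was called, falling by 0.22 with each siRNA (adjusted p = 0.0376 and 0.0352), and its part in the results was not tested. The 3 measured markers of fibroblasts and leukocytes (COL1A2, DCN and CD14) lay at 5.78 to 6.43, below the array medians. Replicate 2 of siLRH-1 #2 stood apart, with 50 probes at least 0.5 log2 units above the level on all other arrays, where no other array had more than 1. Each result that changed without it is given with and without it.

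MAFG and both subunit genes of glutamate-cysteine ligase are the members with more than 1 probe. The 250 bases before their annotated starts are shown because the element through which NRF2 acts was looked for there. The sequences are from RefSeq (build GRCh38.p14), 5′ to 3′ on the strand of the gene, at chr17:81927736-81927985 for MAFG, chr6:53545102-53545351 for GCLC and chr1:93909431-93909680 for GCLM, all on the minus strand. Capitals mark a match to the core of the antioxidant response element on either strand.
MAFG: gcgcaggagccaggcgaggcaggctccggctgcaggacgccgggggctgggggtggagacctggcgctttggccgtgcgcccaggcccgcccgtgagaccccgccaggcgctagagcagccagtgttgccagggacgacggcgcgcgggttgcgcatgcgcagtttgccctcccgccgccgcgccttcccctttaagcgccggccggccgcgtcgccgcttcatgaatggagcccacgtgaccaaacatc
GCLC: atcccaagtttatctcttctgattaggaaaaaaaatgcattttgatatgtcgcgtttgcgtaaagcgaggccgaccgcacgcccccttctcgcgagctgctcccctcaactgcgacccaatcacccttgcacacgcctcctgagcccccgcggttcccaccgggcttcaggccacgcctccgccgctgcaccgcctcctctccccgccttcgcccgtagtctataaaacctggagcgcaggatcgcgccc
GCLM: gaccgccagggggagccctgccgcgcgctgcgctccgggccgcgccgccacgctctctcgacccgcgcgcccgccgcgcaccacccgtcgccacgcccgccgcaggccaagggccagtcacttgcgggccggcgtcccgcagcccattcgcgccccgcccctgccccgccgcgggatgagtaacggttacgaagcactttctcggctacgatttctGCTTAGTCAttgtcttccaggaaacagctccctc
In 7 promoter windows of 300 bases (250 before and 50 after the start) for 6 members, the core TGACNNNGC was found in 1, that of GCLM, at positions -34 to -26 from the start. It was present in 13.3% of all 35116 RefSeq promoter windows of this length. A loosened monomer core, CAAGGNC, of the NR5A family, to which LRH-1 belongs, was likewise present in 1 window and in 16.3% of all windows. That window was again the GCLM window, where the match at positions -143 to -137 reads CAAGGGC. The consensus given in the paper, YCAAGGYCR, has a pyrimidine (Y) after CAAGG and a purine (R) as its last base. The GCLM letters have a G and a C at these places, so they do not meet that consensus. Both strands were searched for each core, and their matches in GCLM did not overlap. A match describes letters in the window only, and binding was not measured. Sequence outside the windows was not searched, so a window without a match does not show that the gene lacks the element. HMOX1, AKR1B10 and FTH1 had no window.

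MAFG, a small MAF protein of the kind with which NRF2 pairs, was the member that rose with both siRNAs. Its log2 signals in siLUC were 7.19, 7.16, 7.31 and 7.19 (replicates 1 to 4). With siLRH-1 #1 they were 7.60, 7.71, 7.65 and 7.65, and with siLRH-1 #2 they were 7.43, 7.63, 7.51 and 7.45. All 8 arrays with an siRNA against LRH-1 lay above all 4 siLUC arrays, while the ranges of the 2 siRNAs overlapped through replicate 2 of siLRH-1 #2, which lay above the lowest array of siLRH-1 #1. MAFG rose by 0.44 on the log2 scale with siLRH-1 #1 (1.36-fold, SE 0.06, n = 4 per group, adjusted p = 4.65e-05, limma) and by 0.30 with siLRH-1 #2 (1.23-fold, SE 0.06, adjusted p = 0.00332). The 2 comparisons share the siLUC arrays. The change with siLRH-1 #1 was 0.15 larger than that with siLRH-1 #2, a difference that did not pass the test (adjusted p = 0.152). Without replicate 2 of siLRH-1 #2 the second change was 0.25 with adjusted p = 0.016, and both calls were kept whichever array was left out.

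A second MAFG probe gave the same order of group means. It rose by 0.55 with siLRH-1 #1 (1.46-fold, SE 0.08, adjusted p = 0.000137), where its signals were 7.31, 7.40, 7.42 and 7.45 against 6.86, 6.97, 6.72 and 6.84 in siLUC. With siLRH-1 #2 the signals were 7.23, 7.18, 7.22 and 6.79, so 3 arrays lay above siLUC and replicate 4 lay within it. The mean difference of 0.26 did not pass the test (adjusted p = 0.0634), and without replicate 4 it was 0.37 (adjusted p = 0.00149). It also passed among the brighter probes alone (adjusted p = 0.0284), under robust eBayes with trend (adjusted p = 0.0367) and with array weights (adjusted p = 0.0444). On this probe the change with siLRH-1 #1 exceeded that with siLRH-1 #2 by 0.29 (adjusted p = 0.0261). This call was lost without replicate 2, 3 or 4 of siLRH-1 #1 (adjusted p = 0.0559, 0.0633 and 0.0827) or replicate 4 of siLRH-1 #2 (adjusted p = 0.11). It was lost without moderation as well (adjusted p = 0.123). The remaining, dim MAFG probe with a mean log2 signal of 6.03 differed from siLUC by 0.02 and 0.07 (adjusted p = 0.935 and 0.691).

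**Figure D1:**
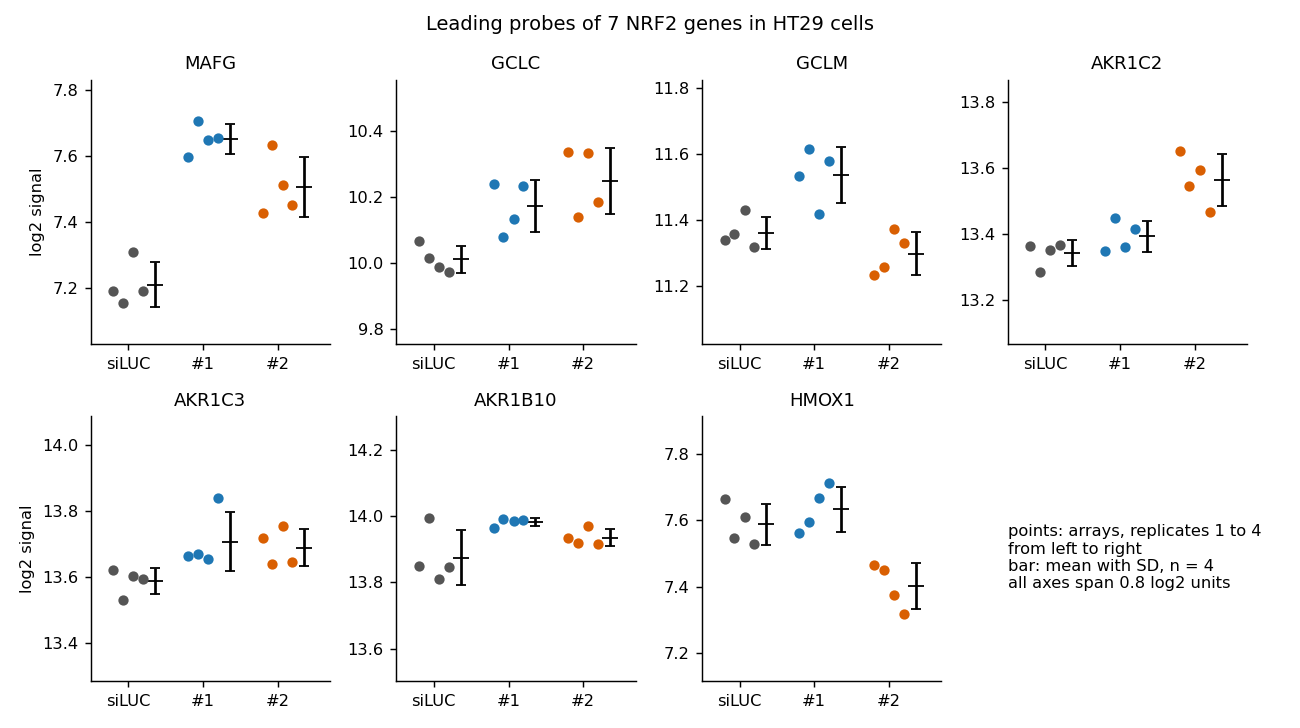
Log2 signal of the leading probe (highest mean signal) of each of the 7 measured genes on the 12 arrays, by siRNA, with the mean and SD (n = 4) beside the points. MAFG lies at 7.60 to 7.71 with siLRH-1 #1 and 7.43 to 7.63 with siLRH-1 #2, above all siLUC arrays (7.16 to 7.31), and HMOX1 is lowest with siLRH-1 #2 (7.32 to 7.47).

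GCLC and GCLM encode the catalytic and the modifier subunit of glutamate-cysteine ligase, the enzyme that limits the rate of glutathione synthesis. GCLC rose with siLRH-1 #2, and its changes with the 2 siRNAs did not differ past the test. The leading GCLM probe passed the test against siLUC with neither siRNA, and its level differed between the 2 siRNAs.

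For GCLC the siLUC arrays read 10.07, 10.02, 9.99 and 9.97, those of siLRH-1 #1 read 10.24, 10.08, 10.13 and 10.23, and those of siLRH-1 #2 read 10.34, 10.14, 10.33 and 10.18. All 8 arrays with an siRNA against LRH-1 were above all siLUC arrays, and the ranges of the 2 siRNAs overlapped. GCLC rose by 0.24 with siLRH-1 #2 (1.18-fold, 95% interval 0.11 to 0.37, adjusted p = 0.0226). With siLRH-1 #1 the difference was 0.16 (95% interval 0.03 to 0.29, adjusted p = 0.152). The 2 changes differed by -0.08 (95% interval -0.21 to 0.05, adjusted p = 0.543). The call with siLRH-1 #2 was lost without replicate 2, 3 or 4 of siLUC (adjusted p = 0.0511, 0.0619 and 0.061) or replicate 1 or 3 of siLRH-1 #2 (adjusted p = 0.0835 and 0.0757). It was also lost in the mean of both GCLC probes, where the change was 0.16 (adjusted p = 0.115). The other probe was dim (mean log2 signal 6.04) and differed from siLUC by 0.05 and 0.08 (adjusted p = 0.814 and 0.613).

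The leading GCLM probe read 11.34, 11.36, 11.43 and 11.32 in siLUC, 11.53, 11.61, 11.42 and 11.58 with siLRH-1 #1, and 11.23, 11.26, 11.37 and 11.33 with siLRH-1 #2. Arrays of siLRH-1 #1 were all above those of siLRH-1 #2, and 3 of them were above all siLUC arrays. The siLRH-1 #1 level exceeded the siLRH-1 #2 level 1.18-fold (a log2 gap of 0.24 with SE 0.06, adjusted p = 0.0116), a call kept whichever array was left out (adjusted p = 0.00569 to 0.0478). Against siLUC, neither change passed the test, at 0.17 with siLRH-1 #1 (95% interval 0.05 to 0.30, adjusted p = 0.0917) and -0.06 with siLRH-1 #2 (adjusted p = 0.637). The first of these passed without replicate 3 of siLRH-1 #1 (0.21, adjusted p = 0.0471) and among the brighter probes alone (adjusted p = 0.0362). It also passed under robust eBayes with trend (adjusted p = 0.0378) and with both probes averaged (0.20, adjusted p = 0.0227).

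The other GCLM probe, at a mean log2 signal of 8.17, rose with siLRH-1 #1. It read 8.08, 8.00, 8.15 and 8.03 in siLUC and 8.29, 8.24, 8.28 and 8.35 with siLRH-1 #1, where all arrays lay above siLUC. With siLRH-1 #2 it read 8.10, 8.18, 8.17 and 8.19, overlapping siLUC. The change with siLRH-1 #1 was 0.23 (1.17-fold, adjusted p = 0.0152). It was lost without replicate 2 of siLUC (adjusted p = 0.0554) or replicate 4 of siLRH-1 #1 (adjusted p = 0.0683). The change with siLRH-1 #2 was 0.09 (adjusted p = 0.395), and on this probe the difference between the siRNAs, 0.13, did not pass the test (adjusted p = 0.162).

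**Figure D2:**
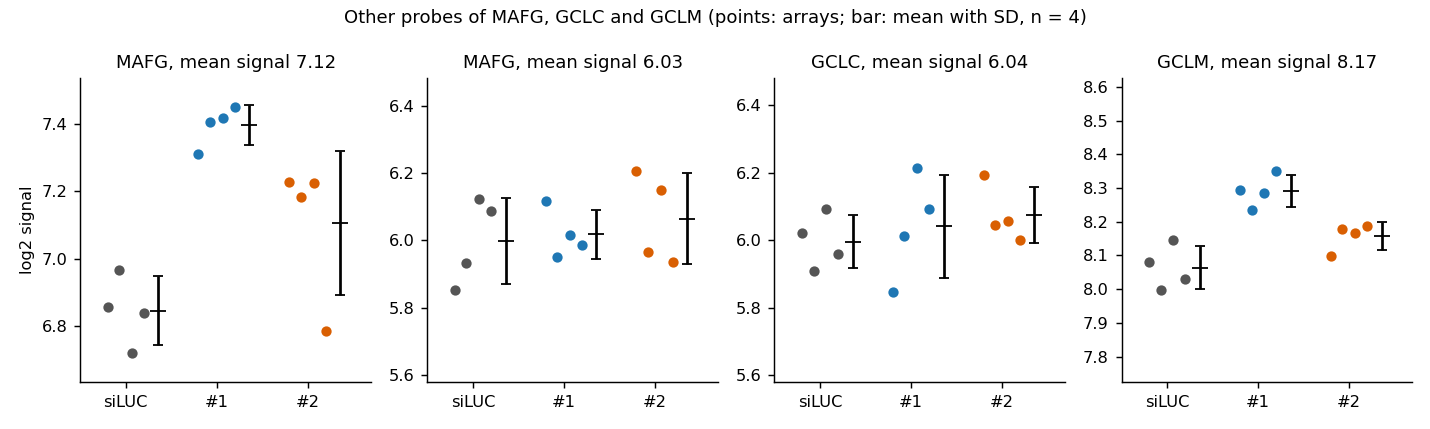
Log2 signal of the 4 further probes of MAFG, GCLC and GCLM on the 12 arrays, by siRNA, with the mean and SD (n = 4). The second MAFG probe lies at 7.31 to 7.45 with siLRH-1 #1 and replicate 4 of siLRH-1 #2 lies at 6.79, inside the siLUC range of 6.72 to 6.97.

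The aldo-keto reductases AKR1C2, AKR1C3 and AKR1B10 reduce carbonyls with NADPH, the AKR1C enzymes acting on steroids and prostaglandins and AKR1B10 on retinals and reactive aldehydes. All 3 were bright, and AKR1C2 rose with siLRH-1 #2. Its signals were 13.36, 13.28, 13.35 and 13.37 in siLUC, 13.35, 13.45, 13.36 and 13.41 with siLRH-1 #1, and 13.65, 13.55, 13.59 and 13.47 with siLRH-1 #2. The siLRH-1 #2 arrays lay above all arrays of both other groups, which overlapped each other. The rise with siLRH-1 #2 was 0.22 (1.17-fold, SE 0.06, 95% interval 0.10 to 0.34, adjusted p = 0.0201), and the difference with siLRH-1 #1 was 0.05 (95% interval -0.07 to 0.17, adjusted p = 0.712). The first call was lost without replicate 2 of siLUC (adjusted p = 0.0701) and without replicate 1 or 3 of siLRH-1 #2 (adjusted p = 0.0792 and 0.0521). The level with siLRH-1 #1 was lower than with siLRH-1 #2 by a log2 difference of -0.17, which did not pass the test (adjusted p = 0.0679). The difference passed without replicate 4 of siLRH-1 #2 (adjusted p = 0.0424), among the brighter probes alone (adjusted p = 0.0261) and under robust eBayes with trend (adjusted p = 0.017). It also passed without moderation (adjusted p = 0.0318) and with array weights (adjusted p = 0.0454), and did not pass in the remaining settings.

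AKR1C1 and AKR1C2 are near-identical neighbours on chromosome 10, and their upstream sequences of 250 bases shared a run of 245 identical bases. AKR1C1 and the windows of AKR1C3 shared 76.8% and 78.6% of aligned bases. The probe sequences were not analysed here, so signal from AKR1C2 and from its copies cannot be told apart.

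AKR1C3 read 13.62, 13.53, 13.60 and 13.59 in siLUC, 13.66, 13.67, 13.65 and 13.84 with siLRH-1 #1, and 13.72, 13.64, 13.75 and 13.65 with siLRH-1 #2. All 8 arrays with an siRNA against LRH-1 were above siLUC, by a narrow margin. The differences of 0.12 (95% interval -0.004 to 0.24, adjusted p = 0.29) and 0.10 (95% interval -0.02 to 0.23, adjusted p = 0.369) did not pass the test. AKR1B10 read 13.85, 14.00, 13.81 and 13.85 in siLUC, 13.96, 13.99, 13.99 and 13.99 with siLRH-1 #1, and 13.93, 13.92, 13.97 and 13.92 with siLRH-1 #2. Replicate 2 of siLUC was the highest of the 12 arrays, so both siRNAs overlapped the control. The differences were 0.11 (95% interval -0.01 to 0.23, adjusted p = 0.322) and 0.06 (95% interval -0.06 to 0.18, adjusted p = 0.627). Between the siRNAs AKR1C3 differed by 0.02 (adjusted p = 0.916) and AKR1B10 by 0.05 (adjusted p = 0.705).

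HMOX1 encodes haem oxygenase 1, the inducible enzyme that breaks haem down to biliverdin, iron and carbon monoxide. It differed between the siRNAs, and its lowest signals were those of siLRH-1 #2. The siLUC arrays read 7.67, 7.55, 7.61 and 7.53, siLRH-1 #1 read 7.56, 7.60, 7.67 and 7.71, and siLRH-1 #2 read 7.47, 7.45, 7.37 and 7.32. All siLRH-1 #2 arrays lay below all others, and siLRH-1 #1 overlapped siLUC. The HMOX1 level under siLRH-1 #1 exceeded that under siLRH-1 #2 1.17-fold (a log2 gap of 0.23, adjusted p = 0.0131), a call lost without replicate 4 of siLRH-1 #1 (adjusted p = 0.0597) or replicate 4 of siLRH-1 #2 (adjusted p = 0.0549). Against siLUC the difference with siLRH-1 #2 was -0.19 (95% interval -0.31 to -0.06, adjusted p = 0.0646) and that with siLRH-1 #1 was 0.05 (adjusted p = 0.764). The former passed among the brighter probes alone (adjusted p = 0.0253).

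**Figure D3:**
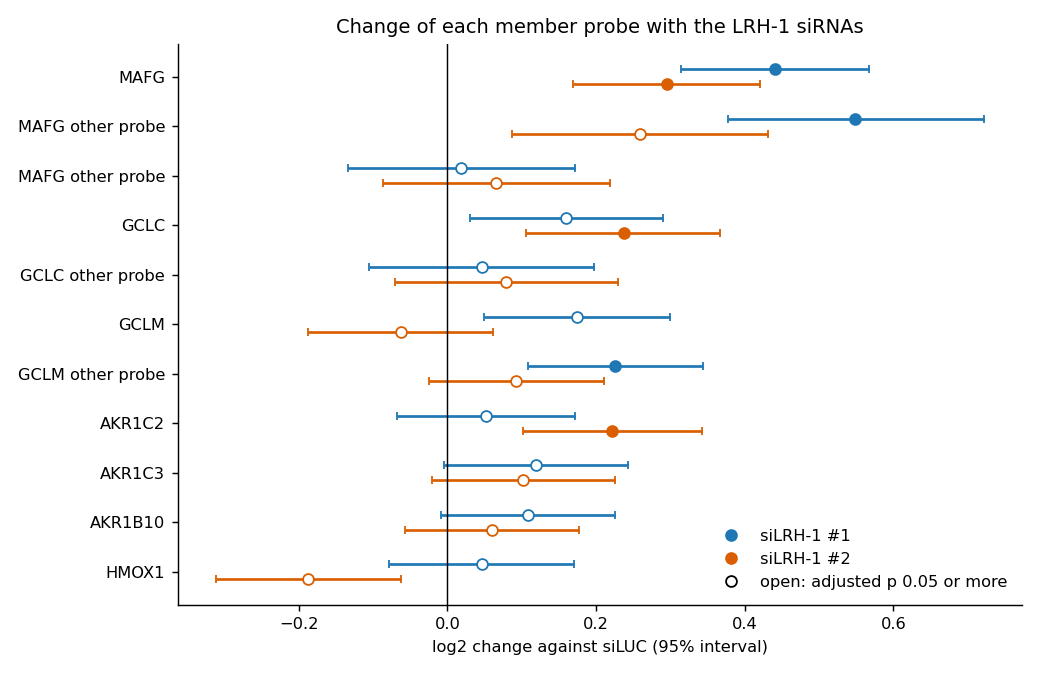
Log2 change of each of the 11 member probes against siLUC with its 95% interval (x axis), for siLRH-1 #1 and siLRH-1 #2, filled where the adjusted p was under 0.05. MAFG is filled for both siRNAs on its leading probe (0.44 and 0.30), and no point with an adjusted p under 0.05 lies below 0.

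By leading probe, 1 of the 7 genes rose and 0 fell with siLRH-1 #1 (limma, adjusted p under 0.05), where 10.2% of the 7331 named genes were called, 5.05% higher and 5.17% lower. With siLRH-1 #2, 3 of 7 rose and 0 fell, where 10.0% of named genes were called, 5.14% higher and 4.88% lower. Unadjusted p was under 0.05 for 3 and 4 of the 7, beside 24.2% and 25.1% of named genes. MAFG was the only gene of the 7 called with both siRNAs, and 1.84% of all named genes rose with both. The median change of the 7 was 0.12 with siLRH-1 #1 and 0.10 with siLRH-1 #2, beside 0.01 over all leading probes in each comparison. Between the 2 siRNAs, 2 of 7 were higher with siLRH-1 #1 and 0 lower, where 14.7% of named genes were called, 6.97% higher and 7.73% lower, and unadjusted p was under 0.05 for 4 of 7, beside 27.6%. Brighter probes were called more often: among leading probes above the median signal, 7.24% were called higher under siLRH-1 #1, 7.30% under siLRH-1 #2, and 10.1% were higher in the former than in the latter. The members were chosen with earlier results of these data known. The shares here and below are therefore descriptive, and a departure of the members from the background was not tested.

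All 4 arrays of siLRH-1 #1 lay above all 4 of siLUC for 3 of the 7 genes (MAFG, GCLC and AKR1C3), where this held for 9.78% of named genes. For siLRH-1 #2 it held for 4 (those 3 and AKR1C2), beside 9.71% of named genes. HMOX1 was the 1 gene of the 7 whose siLRH-1 #2 arrays all lay below siLUC, beside 8.13% of named genes, and no gene of the 7 did so with siLRH-1 #1, beside 8.77%. Between the siRNAs, the arrays of siLRH-1 #1 lay wholly above those of siLRH-1 #2 for GCLM and HMOX1, beside 9.88% of named genes, and wholly below them for AKR1C2, beside 10.5%. Over all 11 probes, 3 rose with siLRH-1 #1 (2 of MAFG and 1 of GCLM) and 3 with siLRH-1 #2 (MAFG, GCLC and AKR1C2), against 3.22% and 3.25% of all 16381 probes that rose.

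**Figure D4:**
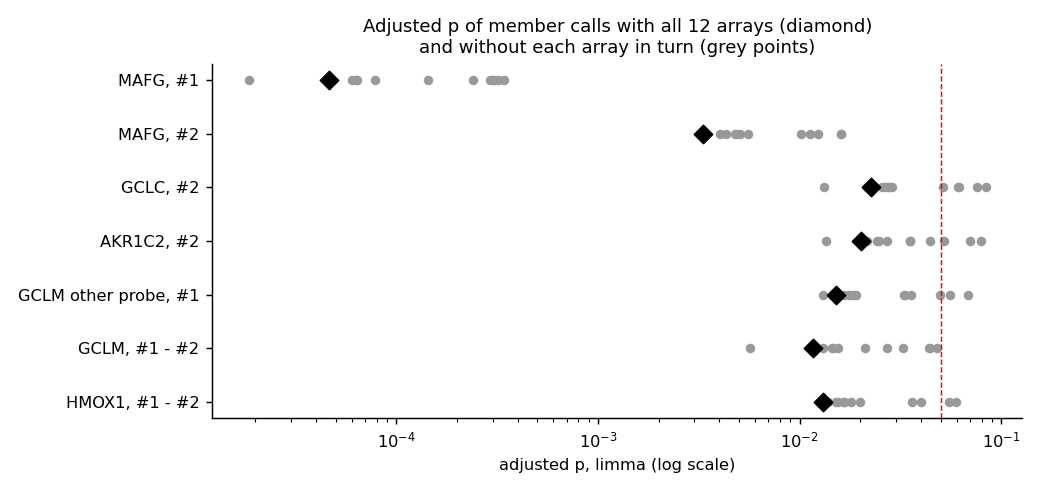
Adjusted p (log scale, limma) of 7 member calls (MAFG, GCLC, AKR1C2, HMOX1 and GCLM by leading probe, and the other GCLM probe) with all 12 arrays (diamonds) and without each array in turn (grey points), with the threshold of 0.05 as a dashed line. Both calls of the leading MAFG probe against siLUC stay left of the line, and those of GCLC and AKR1C2 with siLRH-1 #2 cross it when single arrays are left out.

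A wider list of 63 genes of the same pathway was set beside the members, and 30 of them had a named probe in the value table used here. The rest, among them all thioredoxin genes of the list, were not analysed here, so the counts and comparisons that follow are over those 30. KEAP1 was among them and the NRF2 gene itself, NFE2L2, and NQO1 were not analysed here. With siLRH-1 #1, 4 of the 30 rose and 2 fell. With siLRH-1 #2, 3 rose and 0 fell. The background for siLRH-1 #1 was 5.05% of named genes rising and 5.17% falling, or 10.2% in either direction. For siLRH-1 #2 it was 5.14% rising and 4.88% falling, or 10.0% in either direction. Whether the 30 genes departed from these shares was not tested. Unadjusted p was under 0.05 for 11 and 9 of the 30, beside 24.2% and 25.1% of named genes. The median changes were 0.06 and 0.09, beside 0.01 over all leading probes in each comparison. KEAP1, the adaptor that holds NRF2 down, differed from siLUC on its leading probe by 0.05 (adjusted p = 0.832) and 0.22 (adjusted p = 0.127). The latter passed the test without replicate 4 of siLRH-1 #1 (adjusted p = 0.043). The gap between the siRNAs on that probe, -0.17, did not pass (adjusted p = 0.241). Its other probe differed from siLUC by 0.003 (adjusted p = 0.99) and 0.185 (adjusted p = 0.112). Of the glutathione genes, 13 of 16 were measured, and 1 passed the test against siLUC. This was MGST3, a microsomal glutathione transferase, which rose by 0.18 with siLRH-1 #2 (adjusted p = 0.0493). The call was lost whichever array was left out (adjusted p = 0.0522 to 0.144). It was also lost with a replicate block (adjusted p = 0.078), a further quantile normalisation (adjusted p = 0.0545) and only the 2 groups compared (adjusted p = 0.0786).

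ALDH3A1, an aldehyde dehydrogenase, was the gene that rose with both siRNAs among the 30 measured here. It read 10.20, 10.25, 10.40 and 10.38 in siLUC, 10.54, 10.52, 10.66 and 10.47 with siLRH-1 #1, and 10.86, 10.75, 11.06 and 10.96 with siLRH-1 #2, so that the 3 groups did not overlap. It rose by 0.60 with siLRH-1 #2 (1.51-fold, adjusted p = 8.78e-06) and by 0.24 with siLRH-1 #1 (1.18-fold, adjusted p = 0.0459). The second call was lost when any of 9 arrays was left out in turn, namely replicates 1, 2 and 4 of siLUC, each of siLRH-1 #1 and replicates 1 and 4 of siLRH-1 #2 (adjusted p = 0.0505 to 0.158). Fitting without moderation lost it too (adjusted p = 0.121). The 2 changes differed by -0.36 (adjusted p = 0.00157).

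Of 5 measured genes of haem and iron handling, 2 were called higher under siLRH-1 #1 and 1 was called higher under siLRH-1 #2, where 5.05% and 5.14% of named genes were. HMOX2, the constitutive haem oxygenase, read 6.91, 7.04, 6.89 and 6.89 in siLUC and 7.47, 7.36, 7.33 and 7.69 with siLRH-1 #1, with no overlap. It rose by 0.53 there (1.45-fold, adjusted p = 7.23e-05) and differed by 0.14 with siLRH-1 #2 (adjusted p = 0.353). FECH, which inserts iron into protoporphyrin to form haem, rose by 0.37 with siLRH-1 #1 (1.29-fold, adjusted p = 0.00064). A dimmer FECH probe differed by 0.20 there (adjusted p = 0.0705). With siLRH-1 #2 the leading FECH probe differed by 0.16 (adjusted p = 0.162). BLVRA, which reduces biliverdin, rose by 0.28 with siLRH-1 #2 (1.22-fold, adjusted p = 0.00396) and differed by 0.00 with siLRH-1 #1 (adjusted p = 0.988). The gap between the siRNAs passed the test for HMOX2 (0.40, adjusted p = 0.00104) and BLVRA (-0.28, adjusted p = 0.00282), and for FECH (0.21, adjusted p = 0.04). The last was lost when any of 7 arrays was left out in turn, all 4 of siLRH-1 #1 and replicates 1, 3 and 4 of siLRH-1 #2 (adjusted p = 0.0501 to 0.148). The FECH gap was also lost with the replicate number as a block (adjusted p = 0.051), without moderation (adjusted p = 0.0625) and with only the 2 groups compared (adjusted p = 0.0557).

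ME1, a malic enzyme that supplies NADPH, was the 1 of 5 NADPH genes measured. It rose by 0.24 with siLRH-1 #1 (1.18-fold, adjusted p = 0.0149), a call lost without replicate 2 or 4 of siLRH-1 #1 (adjusted p = 0.0519 and 0.061), and differed by 0.13 with siLRH-1 #2 (adjusted p = 0.217).

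Of 4 efflux transporters, 3 were measured, and 2 fell with siLRH-1 #1, where 5.17% of named genes fell. The remaining one, ABCC2, went the other way with siLRH-1 #1 by 0.16, which did not pass the test (limma, adjusted p = 0.153). ABCC3, which exports glutathione and glucuronide conjugates, read 11.10, 10.94, 11.03 and 11.17 in siLUC, 10.41, 10.34, 10.36 and 10.30 with siLRH-1 #1, and 11.09, 10.79, 10.92 and 11.11 with siLRH-1 #2. The siLRH-1 #1 arrays lay below all others, and siLRH-1 #2 overlapped siLUC. ABCC3 fell by 0.71 with siLRH-1 #1 (1.63-fold lower, SE 0.07, adjusted p = 7.9e-07), and differed by -0.08 with siLRH-1 #2 (adjusted p = 0.583), a gap of -0.63 between the siRNAs (adjusted p = 2.46e-06). ABCC4, an exporter of cyclic nucleotides, fell with siLRH-1 #1 by 0.21 (1.16-fold lower, adjusted p = 0.0413) on its leading probe and by 0.37 on its other probe (adjusted p = 0.00112). With siLRH-1 #2 these probes differed from siLUC by -0.07 and -0.09 (adjusted p = 0.581 and 0.516). The gap between the siRNAs did not pass the test on the leading probe (-0.14, adjusted p = 0.192) and passed on the other (-0.28, adjusted p = 0.00901). The call of the leading probe against siLUC was lost without replicate 1, 2 or 4 of siLUC or any array of siLRH-1 #1 (adjusted p = 0.0705 to 0.112). It was also lost with the replicate number as a block (adjusted p = 0.0591) and without moderation (adjusted p = 0.0533).

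**Figure D5:**
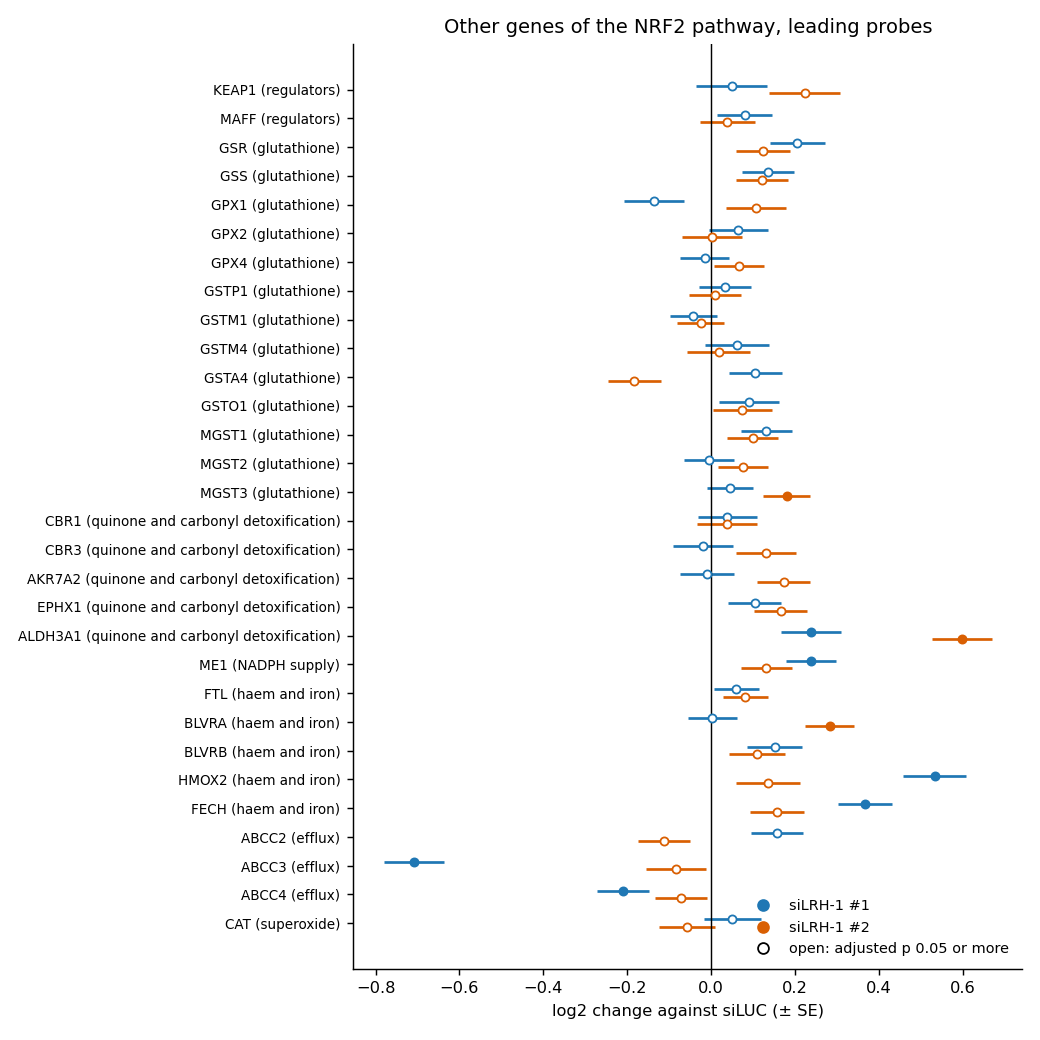
Log2 change against siLUC with its SE (x axis) for the leading probes of the 30 measured genes of the wider list, with their subgroup in brackets, for siLRH-1 #1 and siLRH-1 #2. Filled points have an adjusted p under 0.05, with ABCC3 lowest at -0.71 for siLRH-1 #1 and ALDH3A1 highest at 0.60 for siLRH-1 #2.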

How the data were processed

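Total RNA from 12 HT29 samples was measured on Illumina HumanHT-12 v4 arrays, 4 per siRNA. The deposited values are log2 signals that the authors normalised. The paper describes removing probes that were detected in no sample before that step. All shares given here are over the probes or named genes of the value table, not over the whole array. Per the labels, GenomeStudio and Partek were used, and the sources used here name neither their versions nor a background correction. A table of non-normalised signals was deposited with 24 columns that match no label. It was not used, so a normexp correction could not be run. The slide of each array is not given, so it could not be a block. No values were missing.

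Gene names came from the platform annotation: 9756 probes had 1 symbol, 4 had several and 6621 had none, and 9746 matched RefSeq by gene ID. A gene was led by its probe with the highest mean signal.

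A mean for each of the 3 groups was fitted to all 16381 probes with limma 3.58.1 in R 4.3.3 (lmFit, eBayes, two-sided, 9 residual and 12.1 prior degrees of freedom), with Benjamini-Hochberg adjustment over all probes and a threshold of 0.05. The step was tested on simulated data. The number of arrays limits the precision. Aligned identity of promoters was computed with Biopython 1.88.

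The members and lists were chosen with earlier results of these data known. The rule for names took all member probes and, of the wider list, up to 10 genes called with either siRNA, ranked by change, with NFE2L2, KEAP1 and NQO1. It also took, for each member gene called with either siRNA, the 3 most alike genes. Samples were grouped by the labels. The alternatives were median centring, a further quantile normalisation, the brighter probes alone, robust eBayes with trend, no moderation, only the groups compared, array weights, the mean of a gene's probes, a replicate block, and leaving out each array.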

Additional observations from a re-analysis of the deposited data

Results flagged for a closer look

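Within groups of 4 arrays, 1 array stood apart from the other 3 in 4 of the 60 groups looked at (gap over range above Dixon's value of 0.829). Chance flags about 1 in 20 groups. AKR1C3 read 13.84 in replicate 4 of siLRH-1 #1, where the others read 13.65 to 13.67. AKR1C2 read 13.28 in replicate 2 of siLUC, with the others at 13.35 to 13.37. The second MAFG probe read 6.79 in replicate 4 of siLRH-1 #2, with the others at 7.18 to 7.23. HMOX2 read 7.04 in replicate 2 of siLUC, with the others at 6.89 to 6.90.

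The changes with the 2 siRNAs, both taken against the same siLUC arrays, differed past the threshold (limma, siLRH-1 #1 minus siLRH-1 #2) for GCLM by 0.24 (adjusted p = 0.0116), HMOX1 by 0.23 (adjusted p = 0.0131), HMOX2 by 0.40 (adjusted p = 0.00104), ABCC3 by -0.63 (adjusted p = 2.46e-06), BLVRA by -0.28 (adjusted p = 0.00282), ALDH3A1 by -0.36 (adjusted p = 0.00157) and FECH by 0.21 (adjusted p = 0.04). What lay behind these differences was not tested.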

How the results depend on the processing

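With siLRH-1 #1 the count of member genes called went from 1 to 2 among the brighter probes, under robust eBayes with trend and with the mean of a gene's probes, GCLM being added each time. With siLRH-1 #2 the count went from 3 to 4 among the brighter probes and to 2 with the mean of a gene's probes. Between the siRNAs the count went from 2 to 3 among the brighter probes, under robust eBayes with trend, without moderation and with array weights. Leaving out single arrays gave 1 to 2 called genes with siLRH-1 #1, 1 to 3 with siLRH-1 #2 (1 without replicate 2 of siLUC or replicate 1 or 3 of siLRH-1 #2) and 1 to 2 between the siRNAs (1 without replicate 4 of siLRH-1 #1). Over all probes the counts were 700 to 1210, 817 to 1149 and 1184 to 1619, the lowest of the first without replicate 4 of siLRH-1 #1. Of 675 single values of member probes under an alternative, 643 kept their side of the threshold, 18 lost a call and 14 gained one. Where either fit gave a call, 0 changed direction. Changes of sign between uncalled values were not counted, and they occurred. The dim GCLC probe with siLRH-1 #1, for example, went from 0.046 to as low as -0.012 with a single array left out. The cause of these changes was not tested. The number of arrays limits what changes of this size can be called.

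Same-numbered arrays did not deviate together (correlations of -0.151 to 0.204 over 12 pairs, 2 of them over 0.1), and 2 of 12 arrays correlated best with their own number, so the numbers were not read as pairs. With the replicate number as a block, the counts of member genes called were 1, 3 and 2, as without it, and those of all probes were 1058, 1043 and 1538 against 1146, 1146 and 1629.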

Other observations

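The genes whose leading probes had the profile most like that of a member were listed over the same 12 arrays, which share the 3 groups and the normalisation, so that group differences enter each r. For MAFG they were FBXL20 (Pearson's r = 0.956, Spearman's rho = 0.93), an F-box protein, E2F3 (r = 0.955, rho = 0.921), a transcription factor of the cell cycle, and PRRC2B (r = 0.946, rho = 0.902). For GCLC they were HSPA1L (r = 0.953, rho = 0.986), a heat shock protein of the HSP70 family, CA13 (r = 0.924, rho = 0.853), a carbonic anhydrase, and MPPE1 (r = 0.907, rho = 0.874). For AKR1C2 they were TMEM245 (r = 0.942, rho = 0.867), PIDD1 (r = 0.925, rho = 0.86), a death-domain protein, and CDC25C (r = 0.909, rho = 0.895), a phosphatase of the cell cycle. TMEM245 rose by 0.47 with siLRH-1 #2 (limma, adjusted p = 4.96e-05) and differed by 0.12 with siLRH-1 #1 (adjusted p = 0.37).

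Between the siRNAs, 8 of the 30 measured genes of the wider list differed, 4 in each direction, where 14.7% of all named genes were called. HMOX2, FECH, ABCC2 and GSTA4 were higher with siLRH-1 #1, and ABCC3, BLVRA, ALDH3A1 and GPX1 were higher with siLRH-1 #2. ABCC2, GSTA4 and GPX1 were named after their values were seen.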
